A study of Mus musculus with 6 samples.

Results

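Transcripts of 10 genes that mark the epicardium and other mesothelial sheets, Wt1, Lrrn4, Msln, Upk3b, Upk1b, Gpm6a, Krt19, Krt8, Aldh1a2 and Rspo1, were followed in the hearts of Mc4r KO mice and WT mice. They were taken by name from the 54532 genes of the deposited table. Wt1 and Lrrn4 had been picked because figures of the study show them lower in the Mc4r KO mice, so their values are described here without a test. The other 8 genes were picked for their use as epicardial or mesothelial markers and not for their values, although earlier results of these data were known by then. The Mc4r KO mice were homozygous for a whole-body loss of the melanocortin-4 receptor, and the controls were WT littermates from crosses of heterozygous parents. All mice were males of 12 weeks on the C57B/6/N background, with 3 mice and 3 libraries of polyadenylated RNA per genotype. The tissue is heart in some labels and muscle in the sample titles, and the discussion of the study speaks of the left ventricle. The deletion is in all cells of the body, and the cell types of the tissue were sequenced together.

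The epicardium is the thin mesothelial sheet on the outer face of the heart. In the embryo its cells can leave the sheet and become fibroblasts and mural cells of the coronary vessels, under the control of factors such as WT1 and signals such as retinoic acid. In the adult heart the sheet is a small part of the tissue, so its transcripts are scarce in RNA of whole myocardium. Mesothelium of the pleura and peritoneum expresses many of the same surface proteins and keratins, and several of these genes are also used by other cells, such as Wt1 by some endothelial cells and Gpm6a by neurons.

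Levels are given in FPKM, fragments divided by gene length and by a size of the library. That size was not the number of reads on genes itself, since the deposited values already carried a scaling between libraries, and between 14691076 and 16047003 reads per library fell on genes. All 10 markers were detected in all 6 libraries and all 10 passed the filter on low values, a mean of at least 0.1 FPKM over the 6 libraries. Their mean levels lay between the 20.7th percentile of the 18035 genes tested for Krt8 and the 62.4th percentile for Upk3b. The fewest reads were 4, for Krt8 and for Rspo1 in WT replicate 2, which is just above the floor of 3 reads used for a gene with no signal. The most were 700, for Upk3b in WT replicate 3, with an exact Poisson 95% interval of 649 to 754 reads that covers counting error only.

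One library stood apart before any comparison of genotypes. WT replicate 3 was the highest of the 6 libraries for 10 of the 10 markers, whereas it was the highest for 16.1% of all genes tested. For 7 of the 10 it was at least 2 times the next library, against 1.2% of all genes. Wt1 and Lrrn4 had been chosen as lower in the Mc4r KO mice, which favours a WT library as the highest. Over the other 8 markers the counts were 8 of 8 and 6 of 8. The summed FPKM of the 10 markers was 15.1, 9.51 and 46.5 in WT replicates 1, 2 and 3. The sums of Mc4r KO replicates 1, 2 and 3 were 11.3, 13.3 and 11.4, so WT replicate 3 held 3.08 times the sum of the next library and the other 5 libraries lay close together. WT replicate 2 was the lowest library for 6 of the 10 markers. For these reasons the difference of each marker between the genotypes is given with and without WT replicate 3.

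**Figure D1:**
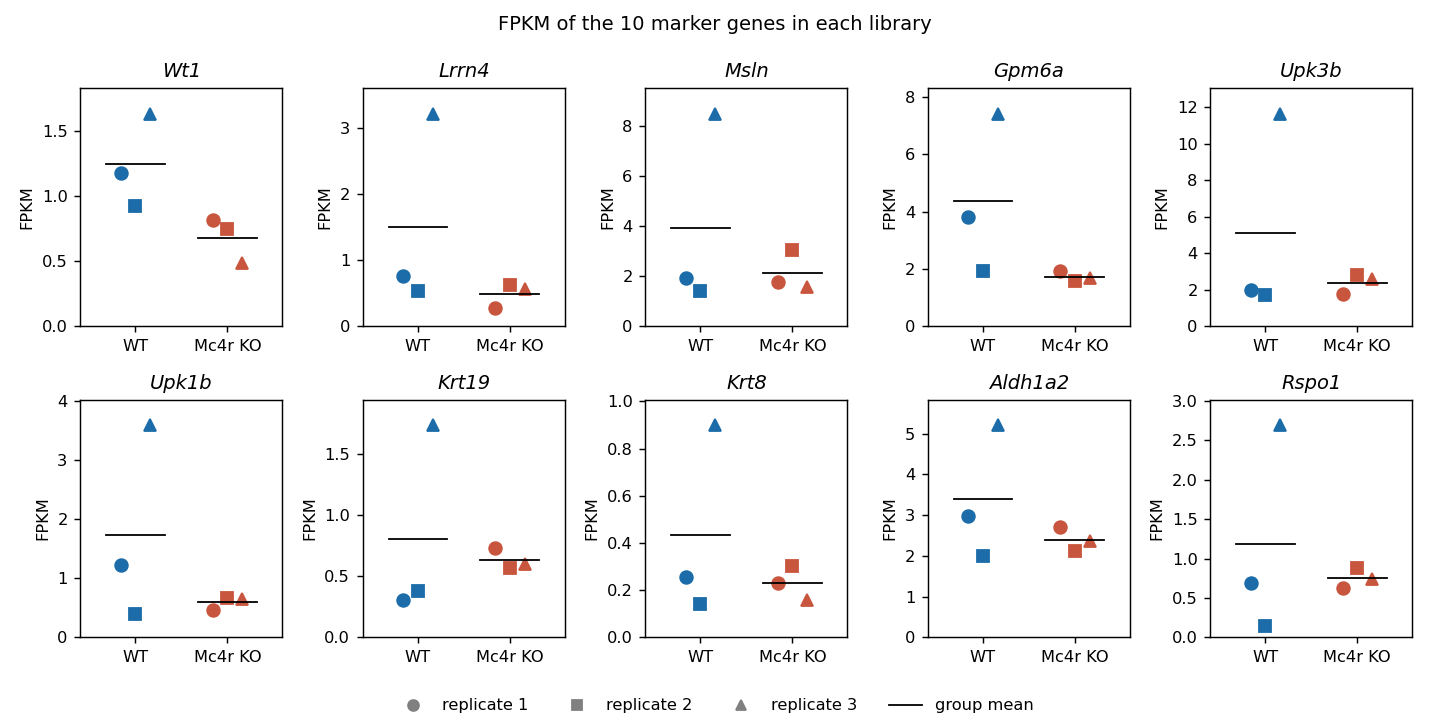
FPKM (vertical axes, each from 0) of the 10 marker genes in the 3 WT and 3 Mc4r KO libraries, with 1 symbol shape per replicate number and a line at each group mean. The blue triangle, WT replicate 3, is the highest point in all 10 panels, and for Wt1 alone the libraries of the 2 genotypes do not overlap.

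Wt1 encodes a zinc finger transcription factor that marks the epicardium from its first stages. Its FPKM was 1.18, 0.922 and 1.63 in WT mice and 0.811, 0.744 and 0.483 in Mc4r KO mice. It was the single marker whose genotypes did not overlap, with the 3 Mc4r KO libraries below all 3 WT libraries. The means were 1.24 ± 0.359 and 0.679 ± 0.173 FPKM (SD, n = 3 each), which gave a log2 difference of -0.78 on the log2(FPKM + 0.1) scale. Without WT replicate 3 the value was -0.58, and leaving out a library cannot make groups that are apart overlap. Among all genes tested, 12.4% had non-overlapping genotypes with Mc4r KO as the lower group, and since Wt1 was chosen on this contrast nothing is read from the comparison. The difference in WT replicate 3 was smallest for this gene, which was there 1.38 times its level in the next library. The deposited table places Wt1 on chr2:105126529-105173616 of the plus strand, in coordinates that match the GENCODE M21 annotation of GRCm38, as do those given for the other markers except Msln.

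Lrrn4 encodes a leucine-rich repeat membrane protein that is enriched in mesothelial cells. It had 0.764, 0.525 and 3.21 FPKM in WT mice and 0.277, 0.620 and 0.554 in Mc4r KO mice. The WT mean of 1.499 ± 1.49 FPKM (SD, n = 3) thus rested on 1 library, which was 4.20 times the next, while WT replicate 2 lay below 2 of the Mc4r KO libraries. The Mc4r KO mean was 0.484 ± 0.182 FPKM (SD, n = 3). Its fitted log2 value was -1.11 with all libraries and -0.39 without WT replicate 3. The gene lies on chr2:132868305-132880891 of the minus strand, on the same chromosome as Wt1.

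The other surface proteins were not chosen on their values. Msln (chr17:25748614-25754327, minus strand) encodes mesothelin, a cell surface glycoprotein of mesothelial cells. Its FPKM was 1.91, 1.38 and 8.47 in WT mice and 1.74, 3.05 and 1.56 in Mc4r KO mice. Outside WT replicate 3 the highest library was thus an Mc4r KO library. Its log2 fold change was -0.47 (95% interval -1.95 to 1.01, limma adjusted p = 0.711), and without WT replicate 3 it was 0.30 (-0.46 to 1.06, adjusted p = 0.581). The gene length used for its FPKM, 2114 bases, differs from the 3064 exonic bases of GENCODE M21, and 2.88% of its words of 50 bases occur in other genes, so its level is uncertain.

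Upk3b (chr5:136038496-136046487, plus strand) encodes uroplakin 3B, a membrane protein of the urothelial family that is also made by mesothelium. It had 1.97, 1.72 and 11.6 FPKM in WT mice and 1.77, 2.78 and 2.60 in Mc4r KO mice. WT replicate 3 was 4.19 times the next library, and the other 5 libraries lay within 1.72 and 2.78 FPKM. Its log2 fold change went from -0.53 (95% interval -2.11 to 1.04, limma adjusted p = 0.689) to 0.33 without WT replicate 3 (-0.19 to 0.86, adjusted p = 0.373). Upk1b (chr16:38773184-38800328, minus strand) encodes uroplakin 1B, a tetraspanin that pairs with uroplakins of the third type. Its FPKM was 1.22, 0.400 and 3.60 in WT mice and 0.463, 0.662 and 0.656 in Mc4r KO mice. The 3 WT libraries therefore spanned both ends of the range, with the Mc4r KO libraries between them. Its log2 fold change was -0.97 (-2.497 to 0.55, adjusted p = 0.441) and -0.24 without WT replicate 3 (-1.31 to 0.83, adjusted p = 0.763).

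Gpm6a (chr8:54954843-55060871, plus strand) encodes a membrane glycoprotein of the proteolipid protein family. It had 3.82, 1.91 and 7.42 FPKM in WT mice and 1.92, 1.58 and 1.69 in Mc4r KO mice. WT replicates 1 and 3 lay above all Mc4r KO libraries, while WT replicate 2 was level with Mc4r KO replicate 1. The means were 4.38 ± 2.80 and 1.73 ± 0.177 FPKM (SD, n = 3 each). Gpm6a had the lowest p of the 8 genes and the only interval that did not reach 0, with a log2 fold change of -1.09 (95% interval -2.10 to -0.091), but the limma adjusted p was 0.211. Without WT replicate 3 the log2 fold change was -0.62 (-1.32 to 0.08, adjusted p = 0.228).

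The promoters of 3 of these genes are shown because Upk3b and Lrrn4 had the largest ratios of WT replicate 3 to the next library and Gpm6a the lowest p, and both windows of Gpm6a are given. The RefSeq windows (GRCm38.p6, 250 bases before to 50 after the start of transcription, 5′ to 3′ on the strand of the gene) were searched for 4 motifs. Capitals mark GGAATG, the motif of the TEAD factors of the Hippo pathway, which reads CATTCC where it lies on the opposite strand, and in the second Gpm6a window TATAAA, which reads TTTATA there. The Upk3b window is chr5:136038246-136038545 on the plus strand, the Lrrn4 window chr2:132880813-132881112 on the minus strand, and the first Gpm6a window chr8:54779184-54779483 on the plus strand, an alternative start far before the gene start in the deposited table. The second Gpm6a window, chr8:54954478-54954777 on the plus strand, lies near that gene start and does not hold GGAATG.
Upk3b: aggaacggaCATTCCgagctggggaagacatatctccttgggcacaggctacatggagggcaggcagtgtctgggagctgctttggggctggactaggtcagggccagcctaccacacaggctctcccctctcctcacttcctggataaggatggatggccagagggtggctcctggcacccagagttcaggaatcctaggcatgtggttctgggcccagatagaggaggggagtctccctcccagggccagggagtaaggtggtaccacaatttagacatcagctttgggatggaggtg
Lrrn4: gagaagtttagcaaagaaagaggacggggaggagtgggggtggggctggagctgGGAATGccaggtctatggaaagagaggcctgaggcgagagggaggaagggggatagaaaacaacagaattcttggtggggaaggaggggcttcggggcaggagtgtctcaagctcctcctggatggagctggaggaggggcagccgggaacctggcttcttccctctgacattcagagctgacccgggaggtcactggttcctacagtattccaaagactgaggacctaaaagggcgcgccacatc
Gpm6a first window: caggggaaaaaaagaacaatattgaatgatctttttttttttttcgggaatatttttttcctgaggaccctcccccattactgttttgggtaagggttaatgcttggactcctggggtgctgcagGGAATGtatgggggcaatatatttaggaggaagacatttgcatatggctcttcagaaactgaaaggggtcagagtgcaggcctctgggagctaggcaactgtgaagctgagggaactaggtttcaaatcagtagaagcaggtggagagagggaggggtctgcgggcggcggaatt
Gpm6a second window: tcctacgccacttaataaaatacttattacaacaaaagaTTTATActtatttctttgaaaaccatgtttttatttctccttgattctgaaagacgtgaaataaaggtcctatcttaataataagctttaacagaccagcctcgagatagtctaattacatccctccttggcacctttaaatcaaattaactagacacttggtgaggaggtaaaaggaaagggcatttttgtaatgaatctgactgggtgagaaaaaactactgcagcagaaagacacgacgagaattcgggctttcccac
Relative to the start of transcription the motif begins at -241 in Upk3b, -196 in Lrrn4 and -125 in the first window of Gpm6a. RefSeq windows were matched for 6 of the 10 markers, with 7 windows in all since Gpm6a has 2 of them, and none was matched for Wt1, Msln, Upk1b and Krt19. GGAATG was in 3 of the 7 windows and in 14.7% of the 32851 promoters of the table, both strands counted. GTGGGCG, the core bound by WT1 and EGR factors, was in 0 of the 7 windows and in 7.97% of all promoters. The GATA motif AGATAA was in 1 of the 7 (Krt8) against 11.2%, and TATAAA in 2 of the 7 (Krt8 and the second window of Gpm6a) against 13.6%. These are matches of letters and were not tied to any binding.

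Krt19 (chr11:100140810-100148665, minus strand) and Krt8 (chr15:101996698-102004482, minus strand) encode keratins of simple epithelia, which mesothelial cells share. Krt19 had 0.306, 0.375 and 1.74 FPKM in WT mice and 0.729, 0.568 and 0.605 in Mc4r KO mice. The Mc4r KO libraries lay between WT replicate 3 above and both other WT libraries below. The log2 fold change of 0.05 (95% interval -1.25 to 1.34, limma adjusted p = 0.977) became 0.73 without WT replicate 3 (0.14 to 1.33, adjusted p = 0.115). This was the lowest adjusted p that any of the 8 genes had with all libraries or under any of 22 alternative settings. Without WT replicate 3 the groups no longer overlapped, but WT replicates 1 and 2 had only 8 and 10 reads. Fewer libraries separate more easily, and the share of all genes that do so without WT replicate 3 was not computed. Krt8 had 0.254, 0.142 and 0.900 FPKM in WT mice and 0.230, 0.303 and 0.159 in Mc4r KO mice, and the 5 libraries other than WT replicate 3 were mixed. Its log2 fold change was -0.44 (-1.71 to 0.84, adjusted p = 0.687) and 0.15 without WT replicate 3 (-0.84 to 1.15, adjusted p = 0.841). Krt8 is uncertain, since it rested on 4 to 30 reads per library, 29.7% of its words of 50 bases also occur in Krt8-ps or Gm36026, and Gm36026 overlaps 5.16% of its exons on the opposite strand.

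Aldh1a2 (chr9:71215789-71296243, plus strand) encodes the retinaldehyde dehydrogenase that makes retinoic acid in the epicardium. Its FPKM was 2.98, 1.999 and 5.21 in WT mice and 2.70, 2.12 and 2.37 in Mc4r KO mice. The Mc4r KO libraries lay between WT replicates 1 and 2. Its log2 fold change was -0.39 (95% interval -1.13 to 0.36, limma adjusted p = 0.533) and -0.03 without WT replicate 3 (-0.52 to 0.46, adjusted p = 0.938), the smallest of the differences without that library. Rspo1 (chr4:124986430-125009099, plus strand) encodes R-spondin 1, a secreted protein that strengthens Wnt signalling through LGR receptors. It had 0.695, 0.144 and 2.70 FPKM in WT mice and 0.632, 0.883 and 0.740 in Mc4r KO mice, so that the WT libraries held both the highest and the lowest value. The log2 fold change was 0.05 (-1.78 to 1.89, adjusted p = 0.982) and 0.94 without WT replicate 3 (-0.30 to 2.18, adjusted p = 0.29).

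Over the 8 genes not chosen on their values, 0 were called different between the genotypes, where a call needs an absolute log2 fold change above 0.75 together with an adjusted p under 0.05. The same fit called 0.46% of all genes tested. At an unadjusted p under 0.05 the count was 1 of 8, Gpm6a, against 3761 of the 18035 genes tested. The fitted log2 fold change was below 0 for 6 of the 8 and above 0 for 2, against 51.2% below 0 over all genes, and the median was -0.45 against -0.011 over all genes. Without WT replicate 3, it was above 0 for 5 of the 8 with a median of 0.23, and again 0 were called, against 4.04% of all genes. When limma voom was run on recovered reads, 0 were called with all libraries, against 1.76% of all genes, and 0 without WT replicate 3, against 4.85%. For none of the 8 did the genotypes fail to overlap with all 6 libraries, while 26.4% of all genes had non-overlapping groups. The intervals were wide, so a difference of 2 times in either direction lay within those of Msln, Upk3b, Krt19 and Rspo1. A smaller number of epicardial cells and less RNA of these genes per cell cannot be told apart in RNA of whole tissue.

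**Figure D2:**
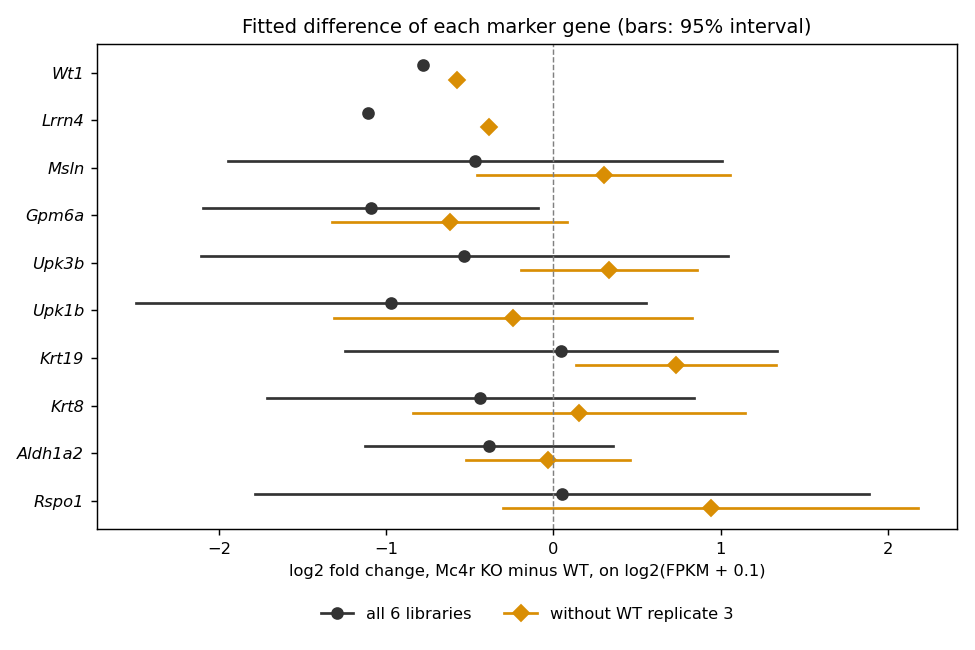
Fitted log2 fold change (Mc4r KO minus WT on the log2(FPKM + 0.1) scale, horizontal axis) of the 10 marker genes with all 6 libraries (circles) and without WT replicate 3 (diamonds), with 95% intervals for the 8 genes not chosen on their values. The values of Msln, Upk3b and Krt8 change sign when that library is left out, and Gpm6a goes from -1.09 to -0.62.

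The coefficient of variation of the markers lay between 28.8% (Wt1) and 114% (Rspo1) in the WT mice and between 10.3% (Gpm6a) and 38.4% (Msln) in the Mc4r KO mice. Over WT replicates 1 and 2 alone it lay between 9.71% (Upk3b) and 93.0% (Rspo1), and for Wt1, Lrrn4, Msln and Upk3b it was then below that of the Mc4r KO mice. In mean FPKM, which is per length, the order in the Mc4r KO mice was Aldh1a2, Upk3b, Msln, Gpm6a, Rspo1, Wt1, Krt19, Upk1b, Lrrn4 and Krt8. Only Gpm6a and Rspo1, at 1.73 ± 0.177 and 0.751 ± 0.126 FPKM (SD, n = 3 each), were neighbours in this order whose ranges of mean ± SD did not meet. In the WT mice the order was Upk3b, Gpm6a, Msln, Aldh1a2, Upk1b, Lrrn4, Wt1, Rspo1, Krt19 and Krt8, from 5.11 ± 5.66 to 0.432 ± 0.409 FPKM (SD, n = 3), and the ranges of all neighbours met.

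A list of 16 further mesothelial genes held 14 that passed the filter, of which 0 were called, 6 with a log2 fold change above 0 and 8 below, with a median of -0.27. The direction of the median turned without WT replicate 3, to 0.19, with 5 above 0 and 5 below among the 10 that still passed the filter. WT replicate 3 was the highest library for 11 of these 14, against 16.1% of all genes. It was at least 2 times the next library for Krt7, Muc16, Nkain4 and Bnc1, against 1.2% of all genes. Of these, Krt7, Muc16 and Bnc1 were at 0.408 FPKM or less in all libraries. Krt7, Muc16, Bnc1 and Slpi passed the filter only through WT replicate 3, which favours it as their highest library, so nothing is read from its place there. Among the genes at least 2 times the next library, Nkain4 alone still passed without it. Nkain4, which encodes a small membrane protein that interacts with the sodium pump, had 0.801, 0.225 and 3.98 FPKM in WT mice and 0.884, 1.49 and 1.26 in Mc4r KO mice. Calb2, which encodes the mesothelial marker calretinin, was at 0 reads in all 6 libraries. The sum of the 16 genes was 26.6, 22.1 and 40.9 FPKM in WT mice and 22.8, 22.9 and 25.8 FPKM in Mc4r KO mice, so WT replicate 3 was highest here too, at 1.54 times the next.

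Efemp1, which encodes the matrix protein fibulin-3 and is also expressed by fibroblasts, was the most abundant gene of that list by the mean over the 6 libraries. In the Mc4r KO mice Rarres2 had the higher mean, at 5.92 FPKM against 3.38 FPKM for Efemp1. Efemp1 had 8.22, 5.84 and 12.2 FPKM in WT mice and 2.34, 3.30 and 4.50 in Mc4r KO mice. The genotypes did not overlap, and the log2 fold change was -1.33 (95% interval -2.07 to -0.60, limma adjusted p = 0.0956). Without WT replicate 3 it was -1.06 (adjusted p = 0.07). Lrrn4cl, the neighbour in name of Lrrn4, had 4.01, 3.91 and 4.14 FPKM in WT mice and 2.74, 2.40 and 3.55 in Mc4r KO mice. These groups did not overlap either, WT replicate 3 was close to both other WT libraries, and the log2 fold change was -0.48 (-0.84 to -0.12, adjusted p = 0.15). It was -0.46 without that library (adjusted p = 0.157). Both genes missed the threshold with all libraries in this fit, while limma voom on reads, also with all libraries, called Efemp1. They were the 2 of 14 with lower, non-overlapping values in the Mc4r KO mice, against 12.4% of all genes. Cldn15, a claudin of tight junctions, was called without WT replicate 3, with a log2 fold change of 0.87 (adjusted p = 0.0414), while its value with all libraries was 0.57 (adjusted p = 0.289).

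Of 15 genes that act in epicardial development, 14 passed the filter and 0 were called, 5 with a log2 fold change above 0 and 9 below, with a median of -0.084. The median without WT replicate 3 was 0.016, with 7 above 0 and 7 below. WT replicate 3 was the highest library for 6 of these 14 and at least 2 times the next for 0, against 16.1% and 1.2% of all genes. Gata4, a cardiac transcription factor and the most abundant gene of the list, had means of 25.2 ± 3.78 FPKM in the WT mice and 27.6 ± 2.42 FPKM in the Mc4r KO mice (SD, n = 3 each, adjusted p = 0.576, and 0.296 without WT replicate 3). Non-overlapping genotypes with lower values in the Mc4r KO mice were found for Sema3d, a guidance cue, with a log2 fold change of -0.74 (adjusted p = 0.182), for Zeb1, with -0.39 (adjusted p = 0.17), and for Zeb2, with -0.49 (adjusted p = 0.124). ZEB1 and ZEB2 repress epithelial genes. These were 3 of the 14, against 12.4% of all genes. Without WT replicate 3 the log2 values were -0.57 for Sema3d (adjusted p = 0.244), -0.51 for Zeb1 (adjusted p = 0.0354, under the fold needed for a call) and -0.49 for Zeb2 (adjusted p = 0.105). Tbx18, a T-box factor of the epicardium and of mural cells, had 1.86, 1.73 and 0.909 FPKM in WT mice and 1.01, 0.725 and 0.766 in Mc4r KO mice. For this gene WT replicate 3 was the lowest WT library, the reverse of its place for the 10 markers. Its log2 fold change was -0.73 (adjusted p = 0.21), and without WT replicate 3 it was -1.03 and called (adjusted p = 0.0291). Hand2, another transcription factor, was also called without that library, with 0.86 (adjusted p = 0.0301) against 0.53 with all libraries (adjusted p = 0.337).

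**Figure D3:**
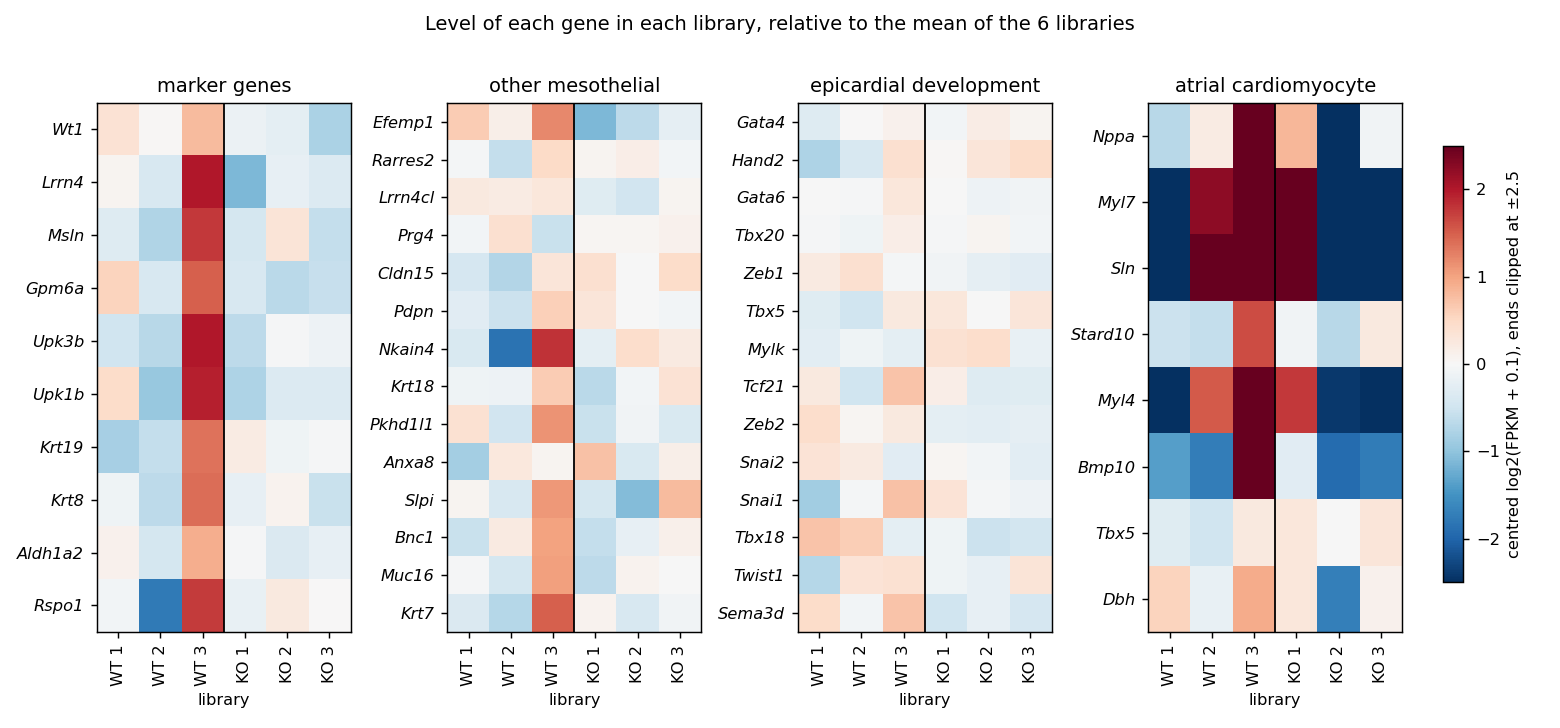
Level of each gene in each library as log2(FPKM + 0.1) minus the mean over the 6 libraries (colour, ends clipped at 2.5 in either direction) for the 10 markers, 14 further mesothelial genes, 14 genes of epicardial development and 8 atrial genes. WT replicate 3 is the reddest column for the markers and for the atrial genes, and not for the genes of epicardial development, where it was highest for 6 of 14.

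Around Aldh1a2, 13 of 18 genes of the retinoic acid pathway passed the filter and 0 were called, 10 with a log2 fold change above 0 and 3 below, with a median of 0.18 (0.16 without WT replicate 3). Cyp26b1, which encodes an enzyme that breaks down retinoic acid, had 0.305, 2.08 and 0.406 FPKM in WT mice and 2.78, 3.42 and 2.89 in Mc4r KO mice. The Mc4r KO libraries were all higher, and WT replicate 2 stood apart from both other WT libraries. The log2 fold change was 2.03 (95% interval 0.65 to 3.40, limma adjusted p = 0.127), and 1.73 without WT replicate 3 (adjusted p = 0.152). Of the retinoid X receptors, Rxrg, the most abundant gene of the list, had 23.1 ± 0.789 FPKM in the WT mice and 29.6 ± 2.496 FPKM in the Mc4r KO mice (SD, n = 3 each), with no overlap and an adjusted p of 0.102 (0.0539 without WT replicate 3). Rxrb had 8.52 ± 2.29 and 12.96 ± 0.941 FPKM (SD, n = 3 each) with no overlap, a log2 fold change of 0.63 and an adjusted p of 0.124, and it was called without WT replicate 3 with 0.84 (adjusted p = 0.00978). Aldh1a3, which encodes another enzyme that makes retinoic acid, did not overlap either, with 0.498 ± 0.0328 against 0.348 ± 0.0325 FPKM (SD, n = 3 each, adjusted p = 0.335, and 0.377 without WT replicate 3). These were 4 of the 13 with non-overlapping genotypes, against 26.4% of all genes.

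Around Rspo1, 5 of 12 genes of the R-spondin pathway passed the filter and 0 were called, with 2 log2 fold changes above 0 and 3 below, and the same numbers without WT replicate 3. Lgr6, which encodes an R-spondin receptor, was the most abundant at 8.05 ± 1.01 FPKM in the WT mice and 7.15 ± 0.552 FPKM in the Mc4r KO mice (SD, n = 3 each, adjusted p = 0.492, and 0.534 without WT replicate 3). Rspo2, Rspo3 and Rspo4 did not pass the filter, which leaves Rspo1 as the R-spondin gene that did. Of 13 genes of the same families as the markers, 6 passed and 0 were called. Lrrn1 had 0.824, 0.207 and 0.0952 FPKM in WT mice and 0.0348, 0.0534 and 0.0842 in Mc4r KO mice, with no overlap and an adjusted p of 0.288 (0.114 without WT replicate 3). Upk2 reads were absent from all 3 WT libraries and numbered 4, 4 and 3 in Mc4r KO mice (adjusted p = 0.114), which is at or just over the floor, so no fold is given. Of the 6, 1 had lower and 1 had higher non-overlapping values, against 26.4% of all genes in either direction. Upk3a, Upk3bl, Krt5 and Krt20 were at 0 in all libraries, and Gpm6b, the most abundant, had 4.37 ± 0.289 and 3.75 ± 1.02 FPKM (SD, n = 3 each, adjusted p = 0.514, and 0.6 without WT replicate 3).

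Markers of other cell types moved with WT replicate 3 to different degrees. Of 8 genes of atrial cardiomyocytes, WT replicate 3 was the highest library for 7, against 16.1% of all genes. It was at least 2 times the next for 6, against 1.2% of all genes. Myl7, the atrial myosin light chain, had 0.240, 28.1 and 307 FPKM in WT mice and 38.8, 0.558 and 0.528 in Mc4r KO mice. Bmp10, an atrial growth factor, had 50.4 FPKM in WT replicate 3 and at most 0.215 FPKM in the other 5. Bmp10 passed the filter only through WT replicate 3, which favours that library as its highest, so nothing is read from its place there. Nppa, which encodes atrial natriuretic peptide and was the most abundant of the 8, had 28.2, 52.2 and 314 FPKM in WT mice and 80.9, 5.40 and 42.9 in Mc4r KO mice. Sln was listed at 0 in WT replicate 1 and in Mc4r KO replicates 2 and 3, and Bmp10 in Mc4r KO replicate 2. The sum of the atrial genes was 41.6, 107 and 839 FPKM in WT mice and 154, 18.1 and 63.7 FPKM in Mc4r KO mice. Mc4r KO replicate 1 and WT replicate 2 came next after WT replicate 3 in atrial transcripts. Their sums of the 10 markers were 11.3 and 9.51 FPKM, and that of Mc4r KO replicate 3 was 11.4 FPKM. The part of atrial tissue in the level of the markers was not tested.

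**Figure D4:**
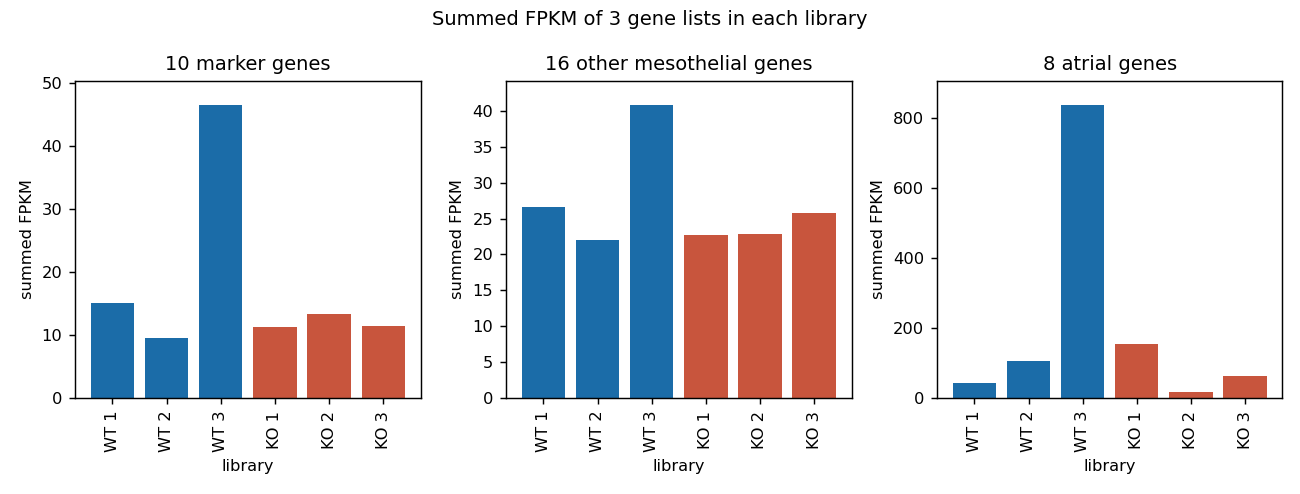
Summed FPKM (vertical axes, from 0) of the 10 marker genes, of 16 further mesothelial genes and of 8 atrial genes in each of the 3 WT and 3 Mc4r KO libraries. WT replicate 3 is the tallest bar in each panel, at 46.5, 40.9 and 839 FPKM. The next libraries for the atrial genes are Mc4r KO replicate 1 and WT replicate 2.

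Markers of lung, liver and fat were checked as tissues that lie near the heart. Of 8 genes of lung epithelium, Sftpa1, Sftpd, Cldn18 and Scgb1a1 were at 0 in all libraries, and the summed FPKM was at most 0.478 in any library, with Napsa as the most abundant. Of 6 liver genes, Alb, Serpina1a and Fgb were at 0 in all libraries, and the most abundant, Ahsg, had 5.80 FPKM in WT replicate 3 and between 0.0899 and 1.96 FPKM in the other 5. The sum of the 6 was 1.32, 1.29 and 5.85 FPKM in WT mice and 2.18, 0.0899 and 1.498 FPKM in Mc4r KO mice. Of 8 adipocyte genes, Lep, Retn and Ucp1 were at 0 in all libraries, and the most abundant, Cfd, had 5, 11 and 9 reads in WT mice and 3, 0 and 0 in Mc4r KO mice. These did not overlap (adjusted p = 0.1, and 0.094 without WT replicate 3), and no fold is given because the Mc4r KO reads are at or under the floor of 3. Cfd was 1 of 2 adipocyte genes that passed the filter, and 12.4% of all genes had lower, non-overlapping values in the Mc4r KO mice. The sum of the adipocyte genes was 0.640, 1.23 and 1.76 FPKM in WT mice and 0.597, 0.0283 and 0.221 FPKM in Mc4r KO mice.

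The larger cell types of the ventricle were checked in the same way. WT replicate 3 was the highest library for 0 of 10 endothelial, 0 of 10 smooth muscle and pericyte and 0 of 10 ventricular cardiomyocyte genes, for 5 of 10 fibroblast genes, against 16.1% of all genes, and at least 2 times the next library for 0 of these 40 genes. The ventricular sum was 15685, 16113 and 14820 FPKM in WT mice and 18012, 19649 and 18748 FPKM in Mc4r KO mice, with Actc1 as the most abundant gene, so genes of heart muscle were abundant in all 6 libraries. Most of these genes are also expressed in atrial muscle, and the list does not tell which part of the heart was taken. The fibroblast sum was 628, 751 and 857 FPKM in WT mice and 732, 557 and 686 FPKM in Mc4r KO mice, led by Gsn, and thus highest in WT replicate 3. The endothelial sum was 427, 451 and 342 FPKM and 492, 489 and 440 FPKM, led by Fabp4, and the mural sum 382, 378 and 294 FPKM and 340, 359 and 266 FPKM, led by Rgs5. In each of the 4 lists 0 of 10 genes were called. Of the fibroblast list, with 5 log2 fold changes above 0 and 5 below, Dcn, Lum and Pdgfra had lower, non-overlapping values in the Mc4r KO mice (adjusted p = 0.0579, 0.107 and 0.12, and 0.0129, 0.0795 and 0.0982 without WT replicate 3). These were 3 of the 10, against 12.4% of all genes, and 0 of the 10 had higher, non-overlapping values. Higher, non-overlapping values were found for Tie1, Egfl7, Esam and Ly6c1 of the endothelial list and for Actc1, Myl2 and Ryr2 of the ventricular list. In these lists and the mural list 0 genes had lower, non-overlapping values. The counts in either direction were thus 4, 3 and 0 of 10 for endothelial, ventricular and mural genes, against 26.4% of all genes. Mitochondrial transcripts made up 59.3%, 57.4% and 47.1% of all FPKM in WT mice and 43.6%, 46.6% and 43.0% in Mc4r KO mice, so WT replicate 3 lay next to the Mc4r KO libraries in this respect. A fit with this share as a covariate therefore compares mainly WT replicate 3 with the Mc4r KO libraries, and genotype and share are hard to tell apart. In that fit all 10 markers had log2 fold changes below 0, and 0 of the 8 were called. The sizes moved by more than 1.5 times for most of them, to -2.58 for Upk3b, -2.57 for Upk1b, -2.20 for Gpm6a, -2.11 for Msln, -1.71 for Krt8 and -1.25 for Aldh1a2, with adjusted p-values between 0.244 and 0.552 over the 8, and to -2.74 for Lrrn4 and -1.16 for Wt1. With array weights, in which each library has its own weight, Msln, Upk3b and Krt8 had values near 0, at -0.02, -0.06 and -0.07. The part of the mitochondrial share in the result was otherwise not tested.

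The protein-coding genes whose pattern over the 6 libraries was most like the mean of the 10 markers were Slc7a7, Aebp1, Isg20, Slit3, Aif1, Fgl2, Kcnd2, Gpc3, Angpt1 and Dusp5. The likeness is the root mean square difference, in log2 units over 6 libraries and among genes with a mean of at least 1 FPKM, and it went from 0.206 for Slc7a7 to 0.368 for Dusp5. The markers themselves differed from their own mean by 0.153 (Krt8) to 0.513 (Rspo1). Slc7a7, a subunit of an amino acid transporter, had 1.01, 0.693 and 2.39 FPKM in WT mice and 0.894, 0.854 and 0.884 in Mc4r KO mice. Aebp1, a matrix-associated protein, had 5.47, 4.58 and 12.7 FPKM in WT mice and 5.24, 5.82 and 4.75 in Mc4r KO mice. In both, WT replicate 3 was more than 2 times each other library, as for 7 of the 10 markers, and the Mc4r KO libraries overlapped with WT replicates 1 and 2, as for all markers but Wt1 and Krt19. These genes were selected for this pattern, so their values are a description.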

How the data were processed

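Adapters and poor reads were removed by the authors, who aligned the read pairs with HISAT2 (version 2.0.5, to mm10, per the submitters' processing notes), counted reads per gene with featureCounts and deposited FPKM for each gene in each of the 6 libraries. The annotation and any strand setting are not given in the sources used here. Multiplied by gene length, 100% of the values in each library were whole multiples of 1 step (tolerance 0.05 reads), which returned the reads per gene. All columns of values matched a library, and 99.8% of the gene identifiers were found in GENCODE M21.

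FPKM are not counts, so limma (version 3.58.1, R 4.3.3, data.table version 1.17.8) was run on log2(FPKM + 0.1) with all 6 libraries and the empirical Bayes trend, after median-of-ratios scaling (all factors equal to 1, since the deposited FPKM were already scaled: the library size they imply was 14100283 in WT replicate 1 and 17030632 in WT replicate 3, against 14767929 and 16047003 reads on genes), over 18035 genes (mean FPKM at least 0.1). This scale understates the change of low genes. The p-values are two-sided, with Benjamini-Hochberg adjustment over all genes tested, and measure the spread between 3 mice per genotype. The thresholds are those of the study's methods, with base 2 assumed here. No exact permutation test was used, since 3 against 3 cannot go below 0.1. The fit was tested on simulated data, and no result of that test is used here.

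The members and gene lists were chosen with earlier results of these data known. The genes named are the 10 markers and, from the lists, those called, those with non-overlapping genotypes at a mean FPKM of at least 0.1, the most abundant of each list, and the 10 genes closest in pattern. Abundance in a list is ranked by the mean over the 6 libraries. Genes of the cell type lists, Krt7, Muc16, Bnc1, Slpi, Nkain4, Rarres2, Calb2 and those named only for a call without WT replicate 3 or for being at 0 were named after their values were seen. Promoters came from RefSeq (GRCm38.p6) and copies of genes were searched as shared words of 50 bases. Python 3.11.15, pandas 2.3.3, numpy 2.4.6 and matplotlib 3.10.9 were used.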

Additional observations from a re-analysis of the deposited data

How the results depend on the processing

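Over the 8 markers not chosen on their values, 0 were called under each of 22 alternatives, with adjusted p-values between 0.115 and 0.992. A mean FPKM of at least 1 left Wt1, Lrrn4, Krt19, Krt8 and Rspo1 untested. Low read numbers limit Krt8, Krt19 and Rspo1 most, and 3 mice per genotype with 1 library apart limit all intervals. Limma voom without WT replicate 3 and the filter of at least 10 reads on average were added after seeing the data.

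The number of genes called over the whole table, 83 with all libraries, moved to 44 with pseudocount 1, 22 with no filter on low values, 147 with a mean FPKM of at least 1, 181 with at least 10 reads on average, 49 with quantile normalization, 41 with scaling to the non-mitochondrial sum, 21 with limma without trend, 435 with array weights, 2 with the mitochondrial percentage as a covariate, 204 with protein-coding genes only, 317 with limma voom on the recovered reads and 872 with limma voom without WT replicate 3. Leaving out 1 library at a time gave 7 to 726, with 726 without WT replicate 3 and at most 14 without any other. The cause was not tested. The non-mitochondrial scaling turned 57 higher and 26 lower calls into 16 and 25 and took the all-gene median of the log2 fold changes from -0.011 to -0.19. Relative to that median, Krt19 and Rspo1 stayed at 0.07 and 0.08, and their own values became -0.11 and -0.10.

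Of the further mesothelial and epicardial genes, 0 were called with all libraries, 1 (Efemp1) with limma voom, 4 with limma voom without WT replicate 3, and 0 to 3 when 1 library was left out, with 3 without WT replicate 3. The shares called over all genes in these settings were 0.46% with all libraries, 1.76% with limma voom, 4.85% with limma voom without WT replicate 3 and 4.04% without WT replicate 3.

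The log2 fold change changed sign for Krt19 with pseudocount 1 (-0.059) and with the mitochondrial covariate (-1.71), and for Rspo1 in the same settings (-0.14 and -1.88). Leaving out 1 library gave -0.36 to 0.73 for Krt19, -0.82 to 0.94 for Rspo1, -0.97 to 0.30 for Msln, -1.02 to 0.33 for Upk3b and -0.87 to 0.15 for Krt8, -1.69 to -0.24 for Upk1b, -0.70 to -0.03 for Aldh1a2, -1.58 to -0.62 for Gpm6a, -1.59 to -0.39 for Lrrn4 and -0.96 to -0.58 for Wt1. The upper ends are those without WT replicate 3, and the lower ends those without WT replicate 2, except for Krt19, where it is without WT replicate 1. Limma voom without WT replicate 3 gave 0.31, 0.35 and 0.20 for Msln, Upk3b and Krt8. The values of Wt1 and Lrrn4, given with no test, were below 0 in all alternatives that gave one.

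The replicate numbers are not stated to pair the mice. The deviations of libraries of the same number correlated at -0.14, 0.0073 and -0.082 over 11297 genes. These correlations cannot tell whether the mice were paired by litter or handling. With the replicate number as a block 11 genes were called, and 0 of the 8 markers. The cause was not tested.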
